A study of Mus musculus with 2 samples.

Results

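Glutamatergic neurons were 480 of the 22086 barcodes kept from a single-cell RNA-seq series of tdT+ cells of mouse embryos, and 480 of its 1948 neurons. A barcode was kept with at least 1000 UMIs (unique molecular identifiers, each 1 counted RNA molecule) and at most 10% of them from mitochondrial genes. A kept barcode was called a neuron with at least 5 UMIs of Tubb3, Stmn2 and Elavl3 together and none of Sox10, and a neuron was called glutamatergic with at least 1 UMI of Slc17a6 and none of Gad1 or Gad2. The cells were chosen by the measured UMIs of these 7 genes, so their values describe the choice and are no finding. The library labelled SRSF2f/f/Myf5-Cre/tdT gave 174 glutamatergic neurons among 12144 kept barcodes, and the library labelled SRSF2f/w/Myf5-Cre/tdT gave 306 among 9942.

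The study asked what SRSF2, a serine/arginine-rich splicing factor, does in cells that have expressed Myf5, and compared embryos with both Srsf2 alleles floxed (SRSF2f/f) with littermates that carry 1 floxed and 1 wild-type allele (SRSF2f/w). Both groups carried Cre under the Myf5 promoter and the tdT reporter, Rosa26-LSL-tdtomato, which Cre switches on. Each group was 1 library of sorted tdT+ cells from E14 embryos whose head and viscera had been removed, and the number of embryos in a library is not given in the sources used here. Cre from the Myf5 promoter acts wherever Myf5 has been active, so the tdT+ gate can hold cells outside muscle, and whether the floxed alleles were recombined in the neurons was not tested. With 1 library a group there is no test between the groups. Cells of a library are not replicates, and every interval given here is a 95% interval for counting error only.

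Srsf2 went against the labels. In all kept barcodes it was at 219 CPM (counts per 1000000 UMIs) in the library labelled SRSF2f/f and at 153 CPM in the library labelled SRSF2f/w, a log2 ratio of -0.52 (95% interval -0.54 to -0.49) for the f/w-labelled over the f/f-labelled library. Barcodes that passed a gate of muscle genes were 19.1% of the first and 1.13% of the second. The study states a much smaller share of skeletal muscle cells for its mutant than for its control embryos. The deposited summary of the library labelled SRSF2f/f is named WT and that of the library labelled SRSF2f/w is named KO. In the other direction, the study states fewer retained cells for its control than for its mutant embryos, and the library labelled SRSF2f/w had fewer kept barcodes. The study's drawing of the allele sets the loxP sites on either side of Srsf2 and names no exon, so whether the 3′ counts lie in the deleted part could not be checked. The libraries are therefore called by their labels, and no ratio between them is read as an effect of the genotype. The libraries shared 74 barcode sequences, and no sequence was a glutamatergic neuron in both.

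Glutamatergic neurons release glutamate, which vesicular glutamate transporters load into synaptic vesicles, and Slc17a6 encodes VGLUT2, the transporter of most excitatory neurons of the spinal cord and of dorsal root ganglia. In the dorsal spinal cord Tlx3 and Lmx1b are known for marking excitatory neurons, while Pax2, Lhx1 and Lhx5 mark inhibitory ones that make GABA and glycine. The sensory neurons of the ganglia, which are derived from neural crest, express Isl1 and Pou4f1, and those for pain and temperature are known for peptides and for the sodium channels Scn9a and Scn10a. Tlx3 is expressed in both places.

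Windows of 250 bases upstream of the annotated starts of Slc17a6, Tlx3, Lmx1b and Isl1 are shown because the first gene defines the cells and the others encode factors whose levels in these cells are described below. They are RefSeq sequences of GRCm38.p6, read 5′ to 3′ on the strand of the gene, at chr7:51621580-51621829 (+) and chr7:51624387-51624636 (+) for the annotated starts of Slc17a6, chr11:33203589-33203838 (-) for Tlx3, chr2:33641099-33641348 (-) for Lmx1b and chr13:116309689-116309938 (-) for Isl1. Capitals mark matches to 3 motifs searched on both strands. TAATTA is a core of many homeodomain sites, CAGATG is an E-box that reads on the other strand as CATCTG, and CCAAT is a box of many promoters that reads there as ATTGG.
Slc17a6 upstream start: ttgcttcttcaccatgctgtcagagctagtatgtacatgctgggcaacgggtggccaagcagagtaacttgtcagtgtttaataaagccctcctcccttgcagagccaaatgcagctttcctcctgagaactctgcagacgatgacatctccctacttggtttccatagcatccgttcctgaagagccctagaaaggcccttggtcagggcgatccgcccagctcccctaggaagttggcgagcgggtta
Slc17a6 downstream start: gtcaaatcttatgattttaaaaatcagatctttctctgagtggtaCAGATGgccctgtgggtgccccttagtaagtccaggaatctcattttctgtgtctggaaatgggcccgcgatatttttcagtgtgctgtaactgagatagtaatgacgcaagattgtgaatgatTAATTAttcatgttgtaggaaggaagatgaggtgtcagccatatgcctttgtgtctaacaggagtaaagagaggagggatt
Tlx3: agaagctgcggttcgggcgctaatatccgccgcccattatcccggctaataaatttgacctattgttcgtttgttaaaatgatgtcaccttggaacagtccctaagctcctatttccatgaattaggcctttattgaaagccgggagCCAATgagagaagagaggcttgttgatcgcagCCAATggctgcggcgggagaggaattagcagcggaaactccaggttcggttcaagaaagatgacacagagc
Lmx1b: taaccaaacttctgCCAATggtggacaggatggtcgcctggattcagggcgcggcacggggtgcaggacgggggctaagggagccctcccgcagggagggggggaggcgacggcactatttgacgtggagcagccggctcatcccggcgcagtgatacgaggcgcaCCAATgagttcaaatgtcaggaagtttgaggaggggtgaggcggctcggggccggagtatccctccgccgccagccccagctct
Isl1: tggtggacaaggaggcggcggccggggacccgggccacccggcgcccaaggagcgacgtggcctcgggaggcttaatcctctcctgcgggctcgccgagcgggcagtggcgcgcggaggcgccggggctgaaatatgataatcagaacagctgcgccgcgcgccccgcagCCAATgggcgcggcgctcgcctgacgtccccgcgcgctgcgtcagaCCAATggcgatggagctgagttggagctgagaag
The upstream window of Slc17a6 held none of these letters and the downstream window held 1 TAATTA and 1 CAGATG, while the windows of Tlx3, Lmx1b and Isl1 held 2 CCAAT each. Among 32851 RefSeq windows of the same length, TAATTA was in 4.84%, CAGATG in 14.4%, CCAAT in 33.8% and at least 2 CCAAT in 10.1%. CCAAT was added to the search after the sequences had been read. A match describes the letters and not a site.

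Glutamatergic neurons were 1.43% (95% interval 1.23 to 1.66) of kept barcodes in the library labelled SRSF2f/f and 3.08% (2.75 to 3.44) in the library labelled SRSF2f/w, a log2 ratio of 1.10 (0.84 to 1.37). Neurons of every kind had a log2 ratio of 0.88 (0.76 to 1.01) over kept barcodes, beside the difference in muscle cells given above. Among neurons the glutamatergic share was 22.4% (19.5 to 25.5) and 26.1% (23.6 to 28.7), a log2 ratio of 0.22 (-0.01 to 0.46). That interval takes in 0, and those of 6 of 11 alternatives lie above 0, such as 0.42 (0.12 to 0.71) with at most 5% mitochondrial UMIs. Among the 6 is a limit on RNA of other cell types, at 0.28 (0.01 to 0.56). It was set on the glutamatergic neurons and not on the neurons they were divided by, so it is no share of neurons low in that RNA. The GABAergic neurons, here neurons with a UMI of Gad1 or Gad2 and none of Slc17a6, were taken for comparison, and their share of neurons was 18.5% and 23.1%. Neurons with none of these transmitter genes were the largest class, 455 and 574 cells. They had more RNA of other cell types than the glutamatergic neurons, a median of 52.0 and 14.3 UMIs per 10000 against 9.96 and 6.98.

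**Figure D1:**
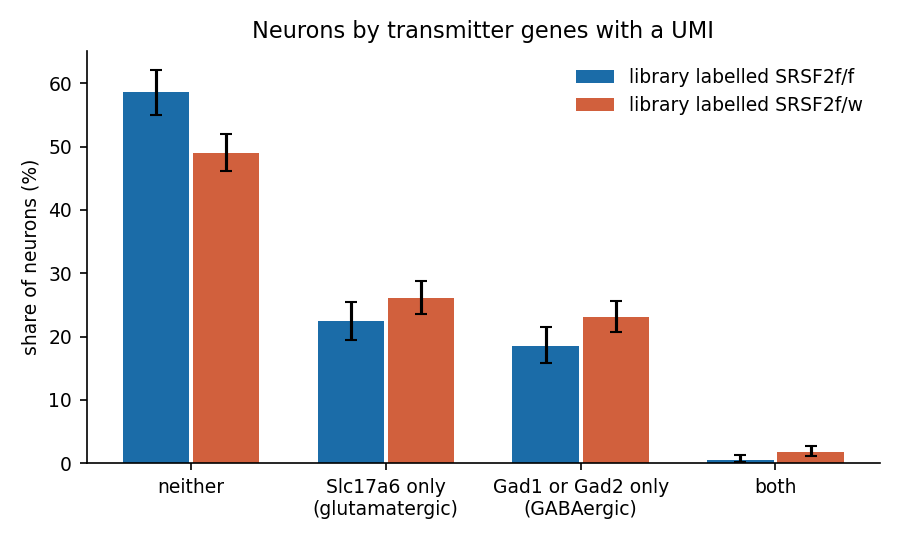
Share of neurons in percent by the transmitter genes with a UMI, for the library labelled SRSF2f/f (777 neurons) and the library labelled SRSF2f/w (1171 neurons), with exact 95% intervals for counting error as bars. The glutamatergic class, Slc17a6 only, stood at 22.4% and 26.1% with overlapping intervals.

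The transporter itself was thinly sampled. Slc17a6 gave 366 UMIs in the f/f-labelled and 798 in the f/w-labelled glutamatergic neurons, and a single UMI admitted 88 and 110 of the cells. The highest count in a cell was 11 and 21. Just outside the rule lay 23 and 26 barcodes with 3 or 4 UMIs of the neuron genes, 2 and 12 with 1 UMI of Sox10, and 2 and 15 with 1 UMI of Gad1 or Gad2. Just inside it lay 11 and 9 cells with 5 or 6 UMIs of the neuron genes. Among endothelial cells, which should lack the transporter, 0.271% and 0.63% had a UMI of Slc17a6 at median depths of 14686 and 17095 UMIs, against median depths of 8105.5 and 9929.5 in the glutamatergic neurons. The other vesicular glutamate transporters were near 0, with 1 and 5 UMIs of Slc17a7 and 0 and 1 of Slc17a8.

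Genes outside the rule set these cells apart from GABAergic neurons. Slc32a1, the vesicular GABA transporter, had 2 UMIs in the glutamatergic neurons of each library and 114 and 223 in the GABAergic neurons. It was detected in 0.575% and 0.654% of glutamatergic cells against 49.3% and 46.7% of GABAergic cells. Pax2, a factor of inhibitory neurons, was in 2.30% and 2.94% of glutamatergic cells and in 63.2% and 60.7% of GABAergic cells. The whole group of 7 GABA and glycine genes outside the rule, with Slc32a1, Slc6a5, Pax2, Pax8, Lhx1 and Lhx5 among them, summed to 18.7 and 33.2 CPM in the glutamatergic and 726 and 874 CPM in the GABAergic neurons. The 9 motor and cholinergic genes summed to 431 and 531 CPM in the glutamatergic and 32.0 and 73.0 CPM in the GABAergic neurons, and the 2 of them tested, Isl1 and Isl2, which sensory neurons also express, were higher. Of the genes that define motor neurons, Mnx1 had no UMI, Chat, which makes acetylcholine, had 0 and 3, and Slc18a3, the vesicular acetylcholine transporter, had 1 and 8.

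Across all genes, a gene was called higher or lower against GABAergic neurons where its CPM ratio was past 2-fold the same way in both libraries. Of 9216 genes with at least 100 UMIs in these cells, 374 (4.06%) were higher and 190 (2.06%) lower, and the median log2 ratio was -0.03 and -0.05. The rule divided these cells, so the counts are a description. The highest 10 by the smaller ratio included Isl2, D130009I18Rik, Ppef1, Avil, Scn10a, Ppp1r1c, Prdm12, P2rx3 and Sncg, of which Avil, Scn10a, Prdm12 and P2rx3 are on the peripheral sensory list. The lowest 10 were Slc32a1, Slc6a5 (the glycine transporter of inhibitory neurons), Lamp5, Pax8, Pax2, Pnoc, Sall3, Gm14204, Gbx1 and Lhx1os. Of the 7 GABA and glycine genes 6 were tested, and all 6 were lower.

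The sensory side was large. Of 12 peripheral sensory genes 10 were higher against GABAergic neurons, all but Tlx2 and Runx3. Isl1 had 881 and 2329 UMIs against 35 and 162, log2 ratios of 3.75 (3.26 to 4.28) and 2.77 (2.54 to 3.01). Of 7 dorsal excitatory factors tested 4 were higher, namely Tlx3, Lmx1b, Prrxl1 and Pou4f1, with the other three, Phox2a, Foxp2 and Maf, within 2-fold in at least 1 library. Tlx3 was detected in 69.0% and 74.5% of glutamatergic cells against 6.25% and 8.52% of GABAergic cells and 0.271% and 1.57% of endothelial cells. Its log2 ratios against GABAergic neurons were 2.93 (2.38 to 3.52) and 3.45 (3.01 to 3.93).

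Axon and transmission genes were higher in smaller numbers. Of 13 neurofilament and microtubule genes 5 were higher against GABAergic neurons (Nefl, Nefm, Nefh, Gap43 and Stmn3) and none was lower. The neurofilament subunit Nefl stood at log2 ratios of 3.59 and 2.81. Among 12 ion channels 5 were higher, among them Cacna2d1, the calcium channel subunit bound by gabapentin, detected in 83.3% and 82.4% of glutamatergic and 13.2% and 12.6% of GABAergic cells. Of 9 neuropeptides Gal, Adcyap1 and Calca were higher and Sst, Npy and Cartpt lower. Adcyap1, which encodes PACAP, was in 37.9% and 39.5% of glutamatergic cells and 1.39% and 1.11% of GABAergic cells. Of 16 synapse genes 4 were higher, with Syt4, Syn2 and Cplx2 among them, and Nrxn3 and Nlgn1 were lower, with Nrxn3, a presynaptic adhesion protein, at -2.84 and -2.66. Of 17 guidance genes Nrp1, Cntn2 and L1cam were higher and Robo3 was lower. Of 6 neurotrophin and GDNF family receptors 3 were higher, with Ngfr and Gfra3 among them. Of 30 Hox genes 6 were lower and none was higher. The glutamatergic neurons compared here hold the sensory gate cells described below, and the part of those cells in these differences was not tested. Summed over 39 Hox genes, sensory gate cells were at 702 and 660 CPM. The other glutamatergic neurons were at 3306 and 3392 CPM, beside 3271 and 3056 CPM in GABAergic neurons.

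Genes that supply and receive glutamate were compared in the same way. Of 7 glutamate supply genes tested none was higher and Slc1a1, a glutamate uptake transporter, was lower. Of 10 ionotropic receptor subunits Grik1 was higher and Gria1, Gria4, Grin2b and Grik2 were lower. Gria2, the AMPA receptor gene with the most UMIs of the list, was detected in 71.3% and 73.2% of glutamatergic neurons and stayed within 2-fold at 0.10 and -0.06. Of 3 metabotropic receptors Grm7, a presynaptic one, was higher and Grm5 lower.

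Among themselves the glutamatergic neurons fell into cells with many peripheral sensory genes and cells with almost none. Of 9 genes used as a gate, with Avil, P2rx3, Prdm12, Tlx2, Runx1, Runx3, Scn9a and Scn10a among them, 103 and 153 cells had none, 14 and 21 had 1, and only 3 and 10 had exactly 2. At least 3 were found in 54 and 122 cells, and 16 and 40 cells had 8. A cell with at least 2 is called a sensory gate cell here. The gate held 57 of 174 cells (32.8%, 25.8 to 40.3) in the library labelled SRSF2f/f and 132 of 306 (43.1%, 37.5 to 48.9) in the library labelled SRSF2f/w, a log2 ratio of 0.40 (0.04 to 0.76). Among cells with at least 2 UMIs of Slc17a6 the shares were closer, 43.0% (32.4 to 54.2) and 46.9% (39.8 to 54.2). The gate held 9.03% and 9.26% of GABAergic neurons and 2.17% and 4.30% of endothelial cells.

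**Figure D2:**
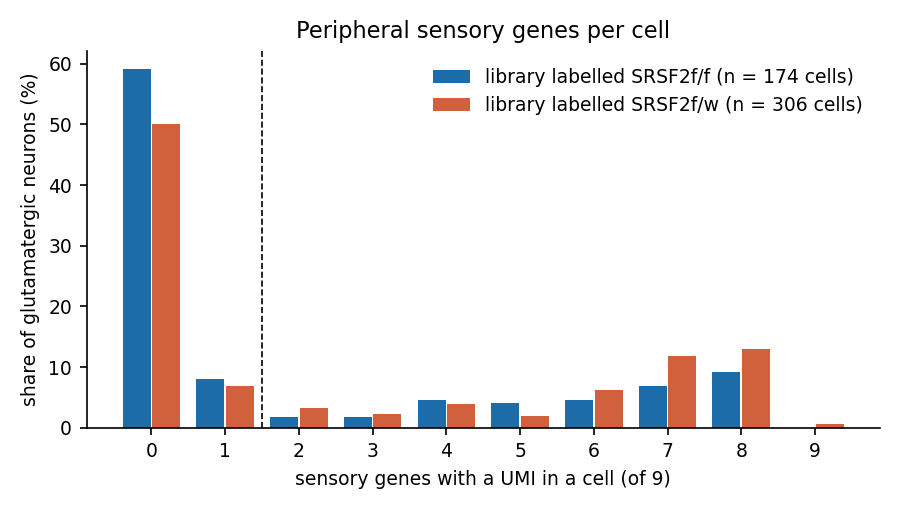
Share of glutamatergic neurons in percent by the number of 9 peripheral sensory genes with a UMI, for the library labelled SRSF2f/f (174 cells) and the library labelled SRSF2f/w (306 cells). The dashed line is the gate of at least 2 genes. Cells with none were 59.2% and 50%, few cells had 2 or 3, and a second rise stood at 7 and 8 genes.

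Sensory gate cells were deeper, with a median of 23291 and 23768.5 UMIs against 6217 and 6899 in the other glutamatergic neurons. After each cell was thinned to 2000 UMIs, which left out 1 cell, the gate held 23.0% and 27.5%. Of the gate cells 62 of 189 (32.8%) had over 20 UMIs per 10000 from genes of muscle, mesenchyme, cartilage, endothelium, immune cells, epidermis or neural progenitors and glia, against 38 of 291 (13.1%) of the other cells. The part of depth and of this other RNA in the division was not tested. Among the cells at or under that limit the gate share was 38 of 134 and 89 of 246.

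Lmx1b and Isl1 were found largely in separate cells. Of 7 dorsal excitatory factors tested, Lmx1b was lower in gate cells and Phox2a, a factor of autonomic neurons, was higher at 1.02 (-0.67 to 3.10, on 13 and 4 UMIs in the library labelled SRSF2f/f) and 3.87 (2.48 to 5.76), with a list median of 0.12 and 0.09. Among the clusters described below that are mostly gate cells, Phox2a had 164 UMIs in 13 of 80 cells of cluster 2. Cluster 3 had 3 UMIs of it in 2 of 75 cells, and clusters 8 and 9 had none. Lmx1b was in 7.02% and 9.09% of gate cells and in 55.6% and 51.7% of the others, although the gate cells were deeper. Isl1 was in 96.5% and 97.7% of gate cells and 3.42% and 3.45% of the others. Tlx3 was in both, at 89.5% and 94.7% of gate cells and 59.0% and 59.2% of the others, and its CPM differed by a log2 ratio of 0.12 (-0.17 to 0.42) and 0.09 (-0.12 to 0.30). Of the cells with Isl1, 51 of 59 and 120 of 135 also had Pou4f1. Of the cells with Lmx1b, 4 of 69 and 14 of 102 had Isl1.

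Against the other glutamatergic neurons, 464 of 7891 genes (5.88%) were past 2-fold higher in sensory gate cells in both libraries and 339 (4.3%) were lower, with the gate genes left out and a median log2 ratio of -0.09 and -0.10. Gate cells were the deeper ones, and with each cell thinned to 2000 UMIs the balance turned, to 61 higher and 112 lower of 1675 genes tested. Prph, the intermediate filament peripherin, had 4699 and 11604 UMIs in gate cells and 4 and 12 in the others, log2 ratios of 9.52 and 8.53. Gal, the neuropeptide galanin, had 1348 and 3575 against 2 and 12. Its log2 ratio of 8.72 in the library labelled SRSF2f/f rests on those 2 UMIs and has an interval of 6.86 to 11.77, and that of the other library was 6.84 (6.03 to 7.79). Sncg, or gamma-synuclein, stood at 8.39 and 6.78. Pirt, a regulator of TRPV1, and Scn7a, a sodium channel, were also among the highest 10, with Ppp1r1c, Hmx1, Pou4f3, Isl1 and Syt2.

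Gate cells were also higher in part of the neurofilament and microtubule genes and in the receptor genes Ngfr and Gfra3. Of 13 neurofilament and microtubule genes 6 were higher, namely Nefl, Nefm, Nefh, Map1b, Gap43 and Stmn3, with Nefm at 3.48 and 2.76. Map2, a protein of dendrites, was lower at -2.59 and -2.73. Axon guidance genes went more often the other way, with 2 higher and 6 lower of 14 tested and a list median of -0.98 and -0.88. Ngfr, the low-affinity neurotrophin receptor, stood at 3.73 and 2.53 and Gfra3, the artemin co-receptor, at 6.42 and 4.92, while Ntrk2 and Gfra1 were lower. Th, tyrosine hydroxylase, was in 71.9% and 63.6% of gate cells and 0.855% and 2.30% of the others, with log2 CPM ratios of 2.72 (1.90 to 3.67) and 4.82 (3.45 to 6.70). Thinned to 2000 UMIs, Th was seen in 8.05% and 7.54% of all glutamatergic neurons.

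The lowest 10 genes in the gate were Uncx, Robo3, Lmx1b, Igfbpl1, Nxph4, Gm17750, Mir9-3hg, Gpm6a, Pou3f3 and Grin2b. Uncx, a homeobox gene of spinal neurons, was at -5.21 and -4.97. Robo3, a guidance receptor of commissural axons, was at -4.93 and -5.38, and Dcc, the netrin receptor, at -2.72 and -5.05. Of 10 immature neuron genes Igfbpl1, Neurod2 and Sox11 were lower in the gate, and Neurod1 and Elavl4 higher. Of 4 ionotropic receptor subunits tested Gria2 (-2.74 and -2.32) and Grin2b (-3.98 and -3.88) were lower and Grik1, a kainate receptor subunit, was higher at 4.18 and 3.87.

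Hox genes, which record position along the body axis, were lower in sensory gate cells almost throughout. Of 24 Hox genes tested 22 were past 2-fold lower and none was higher, with Hoxa7 and Hoxb4 within 2-fold in at least 1 library, and the list median was -2.11 and -2.12. Summed over all 39 Hox genes the level was 702 and 660 CPM in gate cells, 3306 and 3392 CPM in the other glutamatergic neurons and 3271 and 3056 CPM in GABAergic neurons. The gate cells were thus lower by a log2 ratio of -2.24 (-2.34 to -2.14) and -2.36 (-2.43 to -2.29), although every gate cell had at least 1 Hox UMI. By paralogue group the log2 ratios were -1.52 and -1.81 for groups 1 to 4, -1.77 and -2.09 for groups 5 to 7, -3.07 and -3.18 for group 8, -2.65 and -2.68 for group 9 and -2.38 and -2.18 for groups 10 to 13. Hoxb8 was at 51.4 and 45.7 CPM in gate cells and 643 and 595 CPM in the others. Hoxd1 went the other way, with 18 and 24 UMIs in gate cells and none in the others, but had too few UMIs to be tested.

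**Figure D3:**
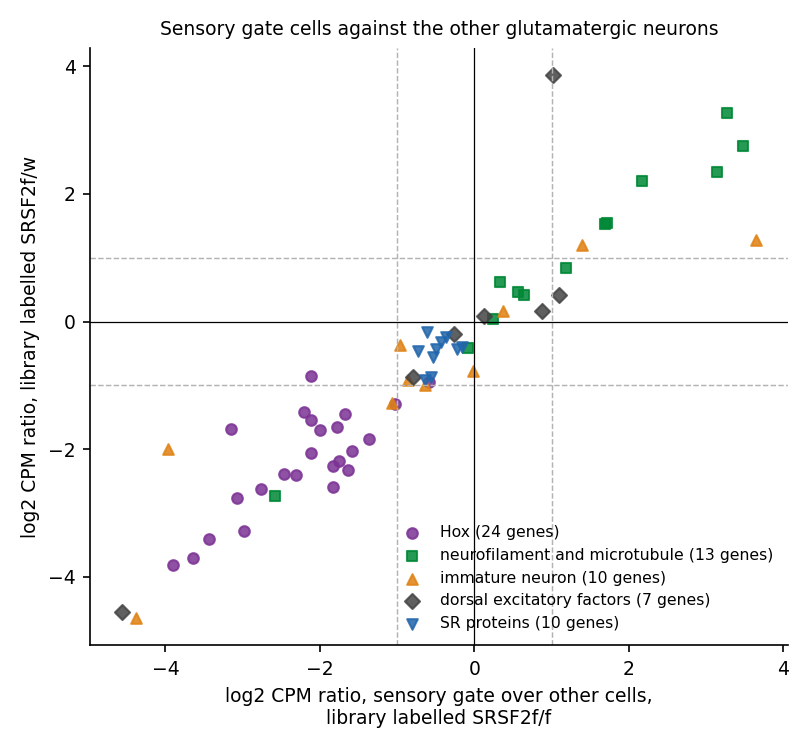
Log2 CPM ratio of sensory gate cells over the other glutamatergic neurons in the library labelled SRSF2f/f (horizontal) and in the library labelled SRSF2f/w (vertical), 1 point per tested gene of 5 lists, with dashed lines at 2-fold. The 24 Hox genes lie at the lower left, 6 of 13 neurofilament and microtubule genes at the upper right, and the 10 SR protein genes within 2-fold.

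Leiden clustering of the 480 cells gave 9 clusters, which are described by the genes that lead them. Every gene below was among those clustered, so nothing here is a test. Clusters 2, 3, 8 and 9 were mostly sensory gate cells, at 90%, 100%, 87.5% and 87.5%, and together held 182 of 189 gate cells. At resolutions of 0.4 and 1.2, which gave 6 and 10 clusters, the clusters made mostly of gate cells held 188 and 181.

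Cluster 3 (24 and 51 cells) was led by Hmx1, Sncg, Scn9a, Prph, the heat and capsaicin channel gene Trpv1 and Gal. With 10 of 12 peripheral sensory markers above the other cells and no cell over the limit for other RNA, it is called peripheral sensory-like. Cluster 2 (30 and 50 cells) had the same 10 markers but was led by Spp1, Col2a1, Acan and other cartilage matrix genes, had a median of 34009.5 UMIs, and had 55 of 80 cells over the limit. It was left unnamed. Cluster 9 (2 and 14 cells) was led by glial genes such as Apoe and Fabp7 beside 9 sensory markers, and was unnamed too.

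Cluster 8 (4 and 20 cells) also passed the gate but lacked much of what cluster 3 had. Its leading genes were Gm26917, Neurod1 and Ccer2, with Neurod1 in 95.8% of cells. Gm26917 led by its mean, 50.2 against 0.56 per 10000 UMIs, and was in 50% of these cells and 42.1% of those outside the cluster. Isl1 was in 95.8% of its cells, but Scn9a in 45.8%, Prph in 37.5% and Th in 8.33%, and Hoxb8 was in 8.33%. It had 7 peripheral sensory, 4 immature and 3 dorsal excitatory markers above the other cells, and stayed unnamed. Shox2, a homeobox gene, was in 95.8% of its cells and 41.3% of those of cluster 3.

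The remaining cells made 5 clusters with few gate cells. Cluster 4 (21 and 40 cells) was led by Dcc, Robo3 and Pde1c, had Igfbpl1 in every cell and 6 immature and 3 dorsal excitatory markers above the others, and stayed unnamed. Cluster 1 (40 and 61 cells), led by Fut9, Erbb4 and Lingo2, had Tlx3 in 78.2% and Lmx1b in 63.4% of its cells, but these 2 dorsal markers were too few for a name. Cluster 7 (17 and 16 cells) was led by Nfix, Lgi1 and Grin2b. Cluster 5 (16 and 33 cells) stood apart, led by Lhx1, Pou3f1 and Lhx5, with Hoxc13 and Hoxc12 among its leading genes, and with Tlx3 in only 4.08% of its cells. Lhx1 was in 34.7%, Pou3f1 in 55.1% and Lhx5 in 30.6% of its cells. Their means per 10000 UMIs differed between the libraries, at 0.22 and 3.29 for Lhx1, 2.29 and 4.98 for Pou3f1 and 0.20 and 1.26 for Lhx5. Cluster 6 (20 and 21 cells) was led by Eln, with Col18a1, Prrx1 and Dcn, genes of mesenchyme and vessels, and 27 of 41 cells were over the limit for other RNA.

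**Figure D4:**
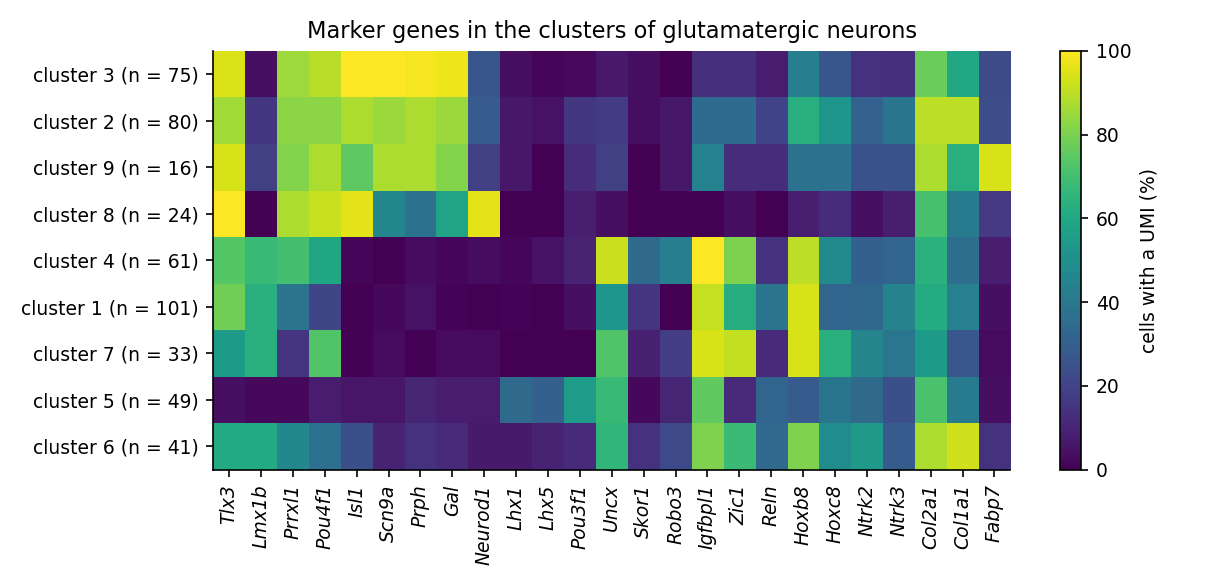
Percent of cells with a UMI of each marker gene in the 9 clusters of glutamatergic neurons, from 0 (dark) to 100 (bright). Isl1, Scn9a, Prph and Gal are bright in clusters 3, 2 and 9, cluster 8 has Isl1 and Neurod1, and Lmx1b, Uncx, Igfbpl1 and Hoxb8 are bright in clusters 4, 1, 7 and 6. Uncx and Igfbpl1 are bright in cluster 5 too.

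Within the glutamatergic neurons the libraries were compared gene by gene. Of 7900 genes tested, 55 (0.696%) were past 2-fold higher in the library labelled SRSF2f/w and 31 (0.392%) lower, with a median log2 ratio of -0.01. No gene of the glutamate supply, ionotropic receptor, neurofilament, synapse, neurotrophin receptor, ion channel, Hox or immature neuron lists was past 2-fold, of 6, 4, 13, 16, 6, 12, 24 and 10 tested. Neuronal lists with genes past 2-fold higher were the neuropeptides (3 of 8 tested), the dorsal excitatory factors (Phox2a of 7, at 2.13 with 17 and 156 UMIs), the monoamine and sympathetic genes (1 of 2) and the GABA and glycine genes (Lhx1, the 1 tested). Of 12 peripheral sensory genes Runx3, a factor of proprioceptive neurons, was higher at 1.28 (17 and 87 UMIs, 0.52 to 2.13), and the summed list was at 0.20. Among cells at or under the limit for other RNA, none of 11 peripheral sensory genes tested was past 2-fold. Of 14 guidance genes Robo3 was lower at -1.31 (100 and 85 UMIs, -1.74 to -0.87). The summed Hox level was lower by 0.27 on the log2 scale. The library labelled SRSF2f/w also had more gate cells, and the part of that in the Hox ratio was not tested. Within gate cells the 39 Hox genes summed to 702 CPM (660 to 745) in the library labelled SRSF2f/f and 660 CPM (634 to 686) in the library labelled SRSF2f/w, and within the others to 3306 (3191 to 3424) and 3392 (3297 to 3489).

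Srsf2 itself had 518 UMIs in the f/f-labelled and 732 in the f/w-labelled glutamatergic neurons, or 210.2 and 141 CPM, and was detected in 81.0% and 72.9% of them. With each cell thinned to 2000 UMIs it was detected in 31.6% and 31.1%, with intervals that overlapped. The log2 ratio was -0.57 (-0.74 to -0.41). It was -0.63 (-0.84 to -0.42) in sensory gate cells, -0.40 (-0.67 to -0.13) in the other glutamatergic neurons and -0.27 (-0.48 to -0.05) in GABAergic neurons, and these ratios were not tested against each other. By cluster, its mean per 10000 UMIs was lower in the library labelled SRSF2f/w in all but clusters 5 (1.19 and 1.63) and 7 (1.68 and 2.06), which held 50 and 37 UMIs of it. Some of the clusters with a lower mean were thin too. Clusters 8 and 9 held 37 and 75 UMIs of Srsf2, with 4 and 2 cells in the library labelled SRSF2f/f. Of 11 SR protein genes 10 were tested and none was past 2-fold, and the summed list was at -0.06.

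Genes of other cell types were among those furthest apart between the libraries. The 8 highest in the library labelled SRSF2f/w were Cpa3, Cma1, Tpsb2, Srgn, Hdc, Krt14, Sprr1a and Krtdap. Cpa3, Cma1, Tpsb2 and Hdc are mast cell genes and Krt14, Sprr1a and Krtdap genes of the epidermis. Cma1, a mast cell protease, had no UMI in the f/f-labelled and 902 in the f/w-labelled glutamatergic neurons, at least a log2 ratio of 7.16 against a floor of 3 counts in the library. Cpa3, with 1 and 468 UMIs, was in 0.575% and 7.52% of glutamatergic neurons, and in 1.08% and 11.2% of endothelial cells. The 5 immune genes summed to 9 and 909 UMIs, the 4 epidermal genes to 11 and 398. The 9 neural progenitor and glia genes summed to 206 and 993 UMIs, or 83.6 and 192 CPM (log2 ratio interval 0.98 to 1.42), with Fabp7 giving the most, and the 4 endothelial genes to 54 and 340 (1.58, 1.17 to 2.02). Of the sparse neuronal lists, the 5 dI1 factors were at 11 and 63 UMIs (1.45, 0.51 to 2.52) and the 7 GABA and glycine genes at 46 and 172 (0.83, 0.35 to 1.33).

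Muscle, mesenchyme and cell cycle lists were lower in the library labelled SRSF2f/w. The 8 lowest genes were Actc1, Tnnt1, Eln, Cenpf, Pbld1, Tpx2, C430049B03Rik and Pclaf, of which Cenpf, Tpx2 and Pclaf are genes of the cell cycle. Actc1, cardiac actin, had 159 and 48 UMIs, a log2 ratio of -2.80 (-3.30 to -2.33). The 9 muscle genes summed to 303 and 123 UMIs (-2.37), with Tnnt1 giving the most, and the 7 mesenchyme genes to 6349 and 6945 (-0.94), with Col1a2 giving the most. Cell cycle genes were also at -0.94. Among endothelial cells Actc1 was in 35.8% and 4.30% and Tnnt1 in 26.6% and 12.5%. The rest of the lowest 8 were closer there, such as Eln at 15.2% and 14.6% and Cenpf at 37.9% and 38.5%. Col2a1, a cartilage collagen, was in 73.0% and 73.2% of glutamatergic neurons and in 81.8% and 80.3% of endothelial cells.

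**Figure D5:**
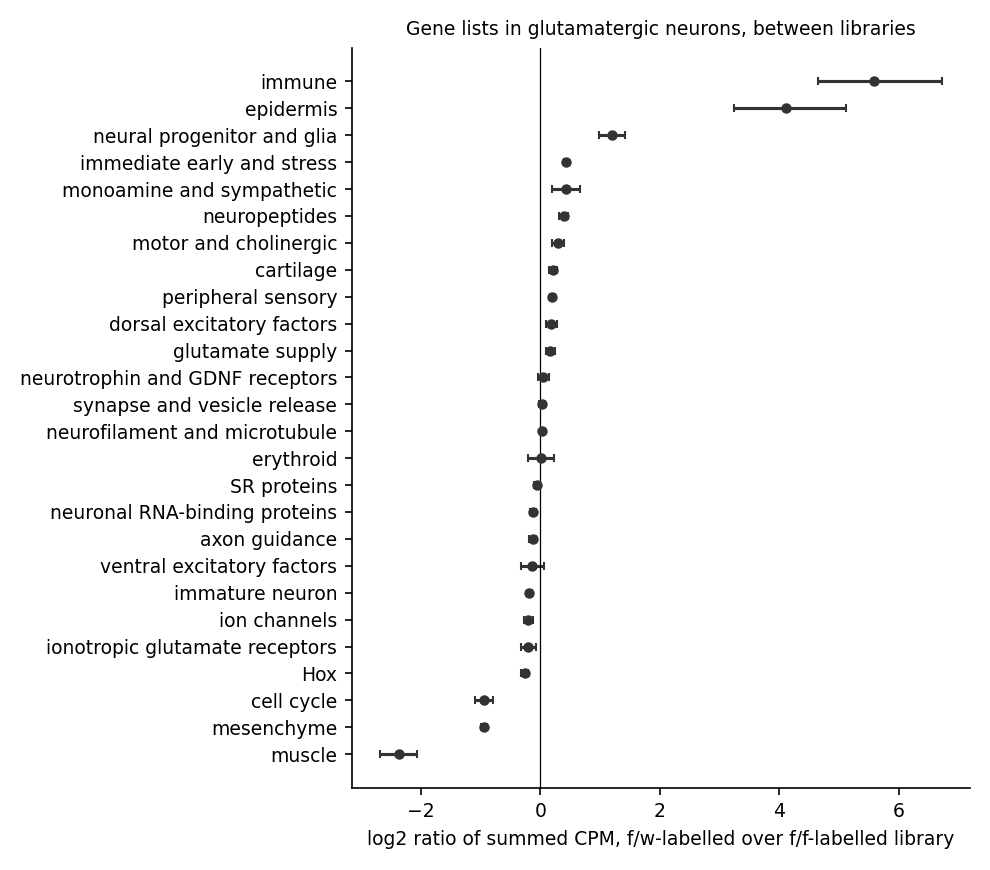
Log2 ratio of the summed CPM of each gene list in glutamatergic neurons, f/w-labelled over f/f-labelled library, with 95% intervals for counting error. Immune (5.59) and epidermis (4.11) lie far right, muscle (-2.37) far left, and the neuronal lists plotted lie between -0.27 (Hox) and 0.43 (monoamine and sympathetic). Sparser lists are not plotted.

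In the 134 and 246 glutamatergic neurons at or under the limit for other RNA, 21 of 6156 genes (0.341%) were past 2-fold higher and 23 (0.374%) lower. The highest 8 were Sprr1a, Krtdap, Tcim, Phox2a, Pcnx4, Cwc22, Fabp7 and Gm26917, and the lowest 8 were Eln, Pclaf, Hist1h1b, Nrk, Top2a, Capn6, Ibsp and Tpm2. Cpa3 was down to 1 and 15 UMIs, too few to be tested. The limit did not take out all such RNA. In the library labelled SRSF2f/w the epidermal genes Sprr1a and Krtdap kept 132 of 140 and 139 of 148 UMIs. Among all glutamatergic neurons of that library they were in 12 and 13 cells. Cwc22, which encodes a spliceosome-associated protein, had 50 and 350 UMIs in all glutamatergic neurons, in 43 and 179 cells, a log2 ratio of 1.74 (1.30 to 2.19), and of 1.45 (0.96 to 1.98) in the cells low in other RNA. It differed between the libraries in other cells too, with 19.8 and 104 CPM in GABAergic neurons and a UMI in 21.4% and 57.9% of endothelial cells. Phox2a, a factor of autonomic and some dorsal neurons, had 17 and 156 UMIs in 5 and 16 cells. Its log2 ratio was 2.13 (1.40 to 2.94) and, in the cells low in other RNA, 1.57 (0.75 to 2.50), and it was at 11.4 and 87.3 CPM in GABAergic neurons.

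Other genes differed through small numbers of cells. Lhx1 had 9 and 101 UMIs in 4 and 27 cells, a log2 ratio of 2.42 (1.44 to 3.59), and was a leading gene of cluster 5, which held 9.20% and 10.8% of the cells. Its UMIs were too few to be tested in cells low in RNA of other cell types. Among neuropeptides Penk, Npy and Cartpt were past 2-fold higher, Penk with 32 and 196 UMIs in 16 and 47 cells at 1.54. In cells low in RNA of other cell types these 3 genes had too few UMIs to be tested. Penk was there at 0.74 (-0.42 to 2.08), Npy at 0.42 (-0.31 to 1.21) and Cartpt at -0.46 (-1.33 to 0.45), each with an interval that takes in 0.

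Immediate early and stress genes were higher in the library labelled SRSF2f/w as a list, at 0.43 (0.39 to 0.47), though none of 10 was past 2-fold. In the cells low in other RNA 1 of 8 tested was, Atf3 at 1.09, with a list median of 0.47. Fos was at 0.72 (0.63 to 0.81), Junb at 0.73 (0.58 to 0.89) and Atf3 at 0.66 (0.52 to 0.81). Thinned to 2000 UMIs a cell, Fos was in 41.4% and 56.1% of glutamatergic neurons and Atf3 in 13.2% and 23.6%. Fos was also at 729 and 856 CPM in GABAergic neurons, where the summed list was at 3193 and 3913 CPM. With 1 library a group, the handling of a library and its label cannot be told apart.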

How the data were processed

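Single tdT+ cells of 2 libraries were prepared with 10x Genomics 3′ chemistry. The deposited matrix holds counts, UMIs per gene and barcode. The authors made it with Cell Ranger 5.0.0 per the file headers (the labels' processing notes list Cell Ranger 3.1.0, STAR, Seurat 3.1.1 and mm10), with introns not included, and aggregated the libraries after down-sampling reads. The deposited library summaries, with values in percent and reads, gave the numbers of cells by which barcode suffixes were assigned to libraries. The matrix holds 27766 barcodes with 156093779 UMIs (median 9219 per barcode) in the library labelled SRSF2f/f and 128116615 (8105.5) in the library labelled SRSF2f/w.

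UMIs were summed over the cells of a library. Shares have exact Clopper-Pearson intervals, sums exact Poisson intervals and ratios exact intervals from the binomial split of the counts, at 95%. Ratios were computed for genes with at least 100 UMIs in the cells compared. A sum of 0 was replaced by a floor of 3 counts for a bound. No doublet caller was run, and the deepest 5% of barcodes were left out as an alternative. Clusters used log-normalized counts, 1500 variable genes, 20 components, 15 neighbours and a resolution of 0.8 (leidenalg 0.10.2, scikit-learn 1.9.0, Python 3.11.15). A cluster was named with at least 3 markers of 1 list above 1.5-fold in at least 25% of its cells, if no other neuronal list had as many as 3 and the leading genes did not go against the name, a rule set after the clusters were seen. The ratios were tested on simulated data, and no result of that is reported or relied on here.

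The cells, gate and gene lists were chosen with earlier results of these data known. Named genes are the 8 highest and 8 lowest between libraries, the 10 highest and 10 lowest in the other comparisons, the 10 leading genes of a cluster and examples of the lists. Promoters were found in RefSeq for 234 of 324 list genes, and 32158 of 32285 gene identifiers matched GENCODE. Thresholds, depth, filters and the limit for other RNA were varied. Deposited barcodes with at least 500 but under 1000 UMIs entered an alternative only. Some genes of the lists are not reported here.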

Additional observations from a re-analysis of the deposited data

Results flagged for a closer look

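A gene is given here where its ratio pointed past 2-fold up in one library and past 2-fold down in the other, and these differences were not tested. Fcer1g, an immune receptor subunit, was at a log2 ratio of -3.86 in glutamatergic against GABAergic neurons of the library labelled SRSF2f/f and at 1.34 in the library labelled SRSF2f/w. Actc1, cardiac actin, was at -1.24 and 1.18 in the same comparison, and at 1.25 and -4.49 in sensory gate cells against the other glutamatergic neurons. Ibsp, a bone matrix gene, was at -2.37 and 3.68 in the latter comparison.

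Neurons with a UMI of Slc17a6 and of Gad1 or Gad2 lay outside the comparisons and were 0.515% of neurons in the library labelled SRSF2f/f (4 cells, median 12021.5 UMIs) and 1.79% in the library labelled SRSF2f/w (21 cells, median 17830 UMIs).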

How the results depend on the processing

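Of 96 alternatives, 73 left the value within its counting interval, or the count within 1.5 times, and none turned the sign of a log2 ratio. Gene counts and gate shares have no sign to turn. Some values could hardly move, since at least 500 UMIs kept the same 174 and 306 glutamatergic neurons and at least 2000 UMIs kept 174 and 305. No paired analysis was possible because each group has 1 library. The log2 ratio of the glutamatergic share of kept barcodes moved from 1.10 to 1.48 with at most 5% mitochondrial UMIs, to 1.48 with at least 2 UMIs of Slc17a6 and to 1.56 with cells thinned to 2000 UMIs, and that of the share of neurons from 0.22 to 0.60 (0.26 to 0.94) with at least 2 UMIs of Slc17a6. Srsf2 moved from -0.57 to -0.76 with at least 2 UMIs of Slc17a6 and to -1.16 in cells thinned before the rule was applied, which left 34 and 81 cells. Genes past 2-fold between libraries went from 86 of 7900 tested to 2 of 303 after thinning. With at least 200 UMIs a gene they were 31 of 5459, and with at least 20 UMIs 599 of 12044. In cells low in other RNA they were 44 of 6156, with 21 higher and 23 lower in place of 55 and 31. Against GABAergic neurons the count went from 564 of 9216 to 305 of 7844 without the 5% deepest barcodes. It was 17 of 668 after thinning and 1027 of 12939 with at least 20 UMIs. The gate share of the library labelled SRSF2f/f went from 32.8% to 40.4% with a neuron sum of at least 10, 43.0% with at least 2 UMIs of Slc17a6 (46.9% in the other library), 21.4% without the deepest barcodes, 20.6% after thinning and 40.8% with a gate of 1 gene. That of the library labelled SRSF2f/w went from 43.1% to 33.3% without the deepest barcodes, 28.4% after thinning, 50% with a gate of 1 gene and to 36.2% in cells low in other RNA. Gate cells against the others gave 173 in place of 803 genes after thinning, where fewer genes could be tested, and the balance turned from 464 higher and 339 lower to 61 higher and 112 lower. The cause of the other movements was not tested. The limit on other RNA, its cells and the alternatives for the gate comparison were chosen after seeing the data. With 1 library a group no interval holds variation between embryos, and 198 of 480 cells rest on 1 UMI of Slc17a6.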
